A study of Homo sapiens with 6 samples.

Results

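The genes of ribosome biogenesis encode the proteins that build the cytoplasmic ribosome, without being part of the finished particle. They were taken as the 75 genes, of 31762 in the count table, whose pathway annotation in that table lists ribosome biogenesis in eukaryotes. That annotation also holds genes of other RNA work, such as XRN1 (mRNA decay), DROSHA (microRNA processing) and RNase P proteins (tRNA). It further holds nuclear export genes such as NXF1 and NXT1. H460 is an established human lung cancer cell line from a large cell carcinoma, labelled wild type. It was grown in RPMI-1640 with fetal bovine serum, and RNA was sequenced in 3 control libraries and in 3 libraries of cells exposed to 20 µM fluoxetine, a selective serotonin reuptake inhibitor, for 24 h. The labels describe the untreated arm only as control and name no vehicle, and they do not say whether the replicates were separate cultures. The p-values therefore measure the spread between these libraries, which may be technical.

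Ribosome assembly starts in the nucleolus, where RNA polymerase I transcribes a long precursor rRNA. Box C/D and box H/ACA small nucleolar ribonucleoproteins (snoRNPs) modify it, the small subunit processome folds and cuts it, and the pre-40S and pre-60S particles mature on the way through the nuclear pores to the cytoplasm. The rate of this work is known to follow growth signalling, and enlarged nucleoli are a familiar sight in cancer cells.

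A library held between 16157507 and 27823667 counts, and each fluoxetine library was shallower than each control library. At that depth 3 counts, the limit that a count of 0 allows, were worth 0.108 to 0.186 CPM (the counts of a gene scaled to library size after TMM normalization), which covers counting error alone. Of the carcinoma markers KRT8, KRT18 and KRT19 were abundant, with a summed marker level of 3057 to 4027 CPM in control and 2689 to 3264 CPM in fluoxetine libraries. EPCAM stood at 6 to 11 counts in control libraries and CDH1 at 0, so the epithelial label rests on the keratins here. The summed lung markers reached at most 0.684 CPM, the endothelial ones 0.182 CPM, and the immune ones lay at 1.98 to 2.45 CPM in all 6 libraries, while the fibroblast markers summed to 26.0 to 28.8 CPM in control and 20.6 to 21.5 CPM in fluoxetine libraries. Of these markers KRT18 (log2 fold change -0.72, edgeR adjusted p = 0.00162) and COL3A1 (log2 fold change -0.53, edgeR adjusted p = 0.0145) were called lower, while the fibroblast markers COL1A2 and DCN had 0 to 8 counts per library. The part of these markers in the results was not tested. Less RNA of a gene per cell and fewer cells of a kind that carries it cannot be told apart in these bulk libraries.

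Ribosome biogenesis genes were mostly lower after fluoxetine, by less than a fold change of 2 each. Of the 73 that had enough counts to be tested, 28 were called lower and 0 higher (edgeR quasi-likelihood test, adjusted p under 0.05 over all 15646 genes tested, at any fold change). That is 38.4% of the tested members, where 5.32% of all tested genes were called lower and 7.76% higher. The tested members had a median control level of 69.8 CPM, against 16.3 CPM over all tested genes, so the 2 sets differ in abundance. At an unadjusted p under 0.05 edgeR had 39 lower and 2 higher, XRN1 and EFL1, against 12.9% and 15.8% of all genes. DESeq2 and limma-voom also called 0 members higher. The log2 fold change (fluoxetine over control) was below 0 for 66 of the 73 members and for 45.8% of all tested genes. Its median was -0.26 over the members and 0.03 over all tested genes, and it ran from -0.68 for NXT1 to 0.46 for XRN1, so 0 members met a fold change of at least 2, which 1.39% of all genes met.

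The reads on the 75 genes took 0.870, 0.843 and 0.867% of all counts in control libraries and 0.713, 0.722 and 0.718% in fluoxetine libraries. Here and below, 3 values in a row belong to replicates 1, 2 and 3 in that order. The groups did not overlap on this share, which is scaled to the library total alone, without TMM factors. As a share of all counts it also depends on the levels of all other genes. Within the libraries, the median member stood at 0.04, -0.02 and -0.005 in control and -0.25, -0.21 and -0.24 in fluoxetine, as the log2 distance from the mean of the control libraries. The 3 fluoxetine libraries were thus shifted alike, with 63, 63 and 59 of the 73 members below the control mean. For 38 members (52.1%) every fluoxetine library lay below every control library, against 14.4% of all genes, and EFL1 alone lay above in all libraries, against 17.5%.

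**Figure D1:**
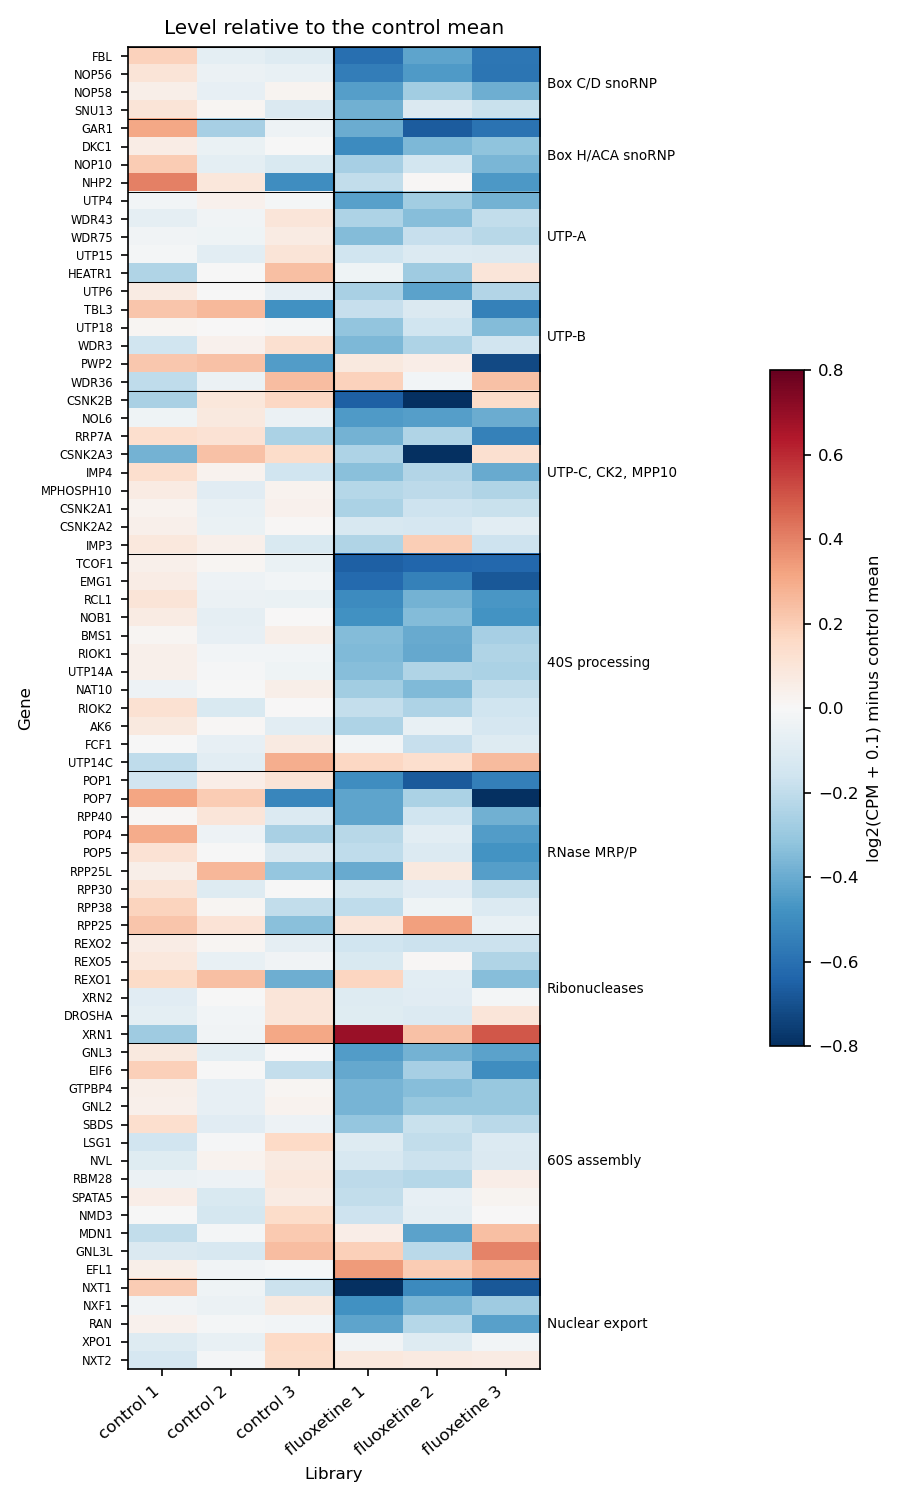
Colour gives log2(CPM + 0.1) minus the mean of the 3 control libraries for each of the 73 tested genes (rows, grouped by role) in each library (columns, control left and fluoxetine right of the line). Blue is below and red above the control mean. Most rows turn blue in all 3 fluoxetine libraries, where 63, 63 and 59 genes lay below the control mean, while XRN1 and EFL1 turn red.

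The number of calls depended on single libraries. It was 8 without fluoxetine replicate 1, 15 without fluoxetine replicate 3 and 19 to 39 without any of the other 4, where fewer libraries enter the test. Of all genes, 1.01%, 2.01% and 2.75 to 12.7% were called lower in these fits, in the same order. Correcting each library for its dependence on GC content and transcript length gave 44 lower calls and 1 higher, with 14.9% of all genes called lower instead of 5.32%. The share of higher calls over all genes then went from 59.3% to 40.5%. DKC1, EMG1, FBL, GNL3, NOL6, NOP56, POP1 and TCOF1 were called lower under each of the 17 alternative fits.

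**Figure D2:**
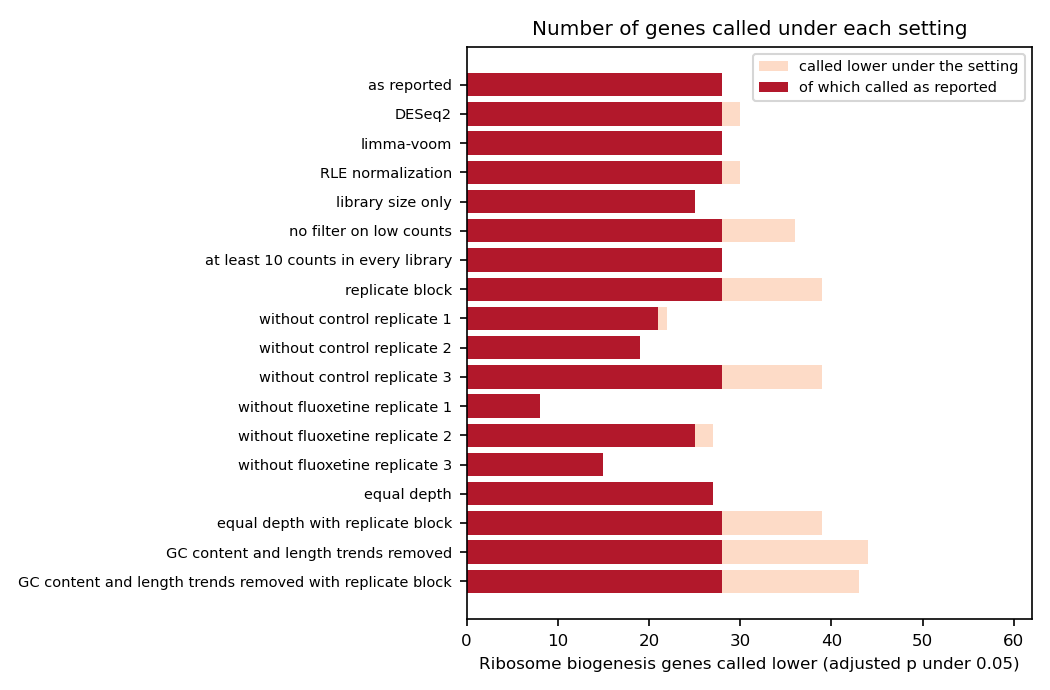
Bars give the number of the 73 or 75 ribosome biogenesis genes called lower (adjusted p under 0.05) in each fit, and the dark part gives those among the 28 called as reported. The count reads 28 as reported, 8 without fluoxetine replicate 1 and 44 with GC content and length corrected.

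Promoters are shown for a few called members because most members shifted the same way. Printed are the called genes with at least 2 matches of the motifs below before the gene's start, and the called gene of smallest p with 1 match and with 0. Windows with too few bases before that start were left out, such as that of NOP56, which has 0 matches and a smaller p than NOL6. RefSeq promoters (GRCh38.p14, 250 bases before the start) matched 68 of the 75 genes. MPHOSPH10, SPATA5, NXF5, POP1, SNU13, NOP58 and TCOF1 had no entry. A pair of motifs known from such promoters was searched on both strands, the E-box CACGTG, which MYC and related factors bind, and CCGGAAG, an ETS-type motif, and neither contains the other. CACGTG was in 20.6% of the 68 promoters, 24.0% of those of called and 19.0% of those of tested but not called members, 11.3% of those of all tested genes with an entry and 7.73% of all 27305 genes with one. CCGGAAG was in 33.8, 36.0, 33.3, 18.6 and 10.2% of the same sets. In genes, CACGTG was in 6 of 25 called and 8 of 42 members not called, and CCGGAAG in 9 and 14, so the shares lay close together. Members not called also held several matches in the 250 bases. NOP10 had 2 of CACGTG and 1 of CCGGAAG, and WDR3, FCF1 and REXO5 had 2 of CCGGAAG each. A match is a description of the letters, and not a bound site or a cause. The stretches below run 5' to 3' on the gene's strand and end before the gene's start in the count table, with the motif or its reverse complement in capitals. They are EMG1 (chr12:6970663-6970892, plus strand, 1 match), NXT1 (chr20:23350541-23350735, plus strand, 2 matches) and UTP18 (chr17:51260296-51260527, plus strand, 3 matches), and NOL6 (chr9:33473931-33474174, minus strand) as a called gene with 0.
EMG1: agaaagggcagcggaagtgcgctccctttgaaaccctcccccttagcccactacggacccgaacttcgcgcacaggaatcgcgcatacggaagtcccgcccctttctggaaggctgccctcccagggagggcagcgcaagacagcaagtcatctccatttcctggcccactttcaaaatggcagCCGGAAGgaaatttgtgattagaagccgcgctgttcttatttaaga
NXT1: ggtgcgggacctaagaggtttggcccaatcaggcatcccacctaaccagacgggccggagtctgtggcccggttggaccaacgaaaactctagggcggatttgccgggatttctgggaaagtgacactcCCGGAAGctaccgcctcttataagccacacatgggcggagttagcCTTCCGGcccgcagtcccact
UTP18: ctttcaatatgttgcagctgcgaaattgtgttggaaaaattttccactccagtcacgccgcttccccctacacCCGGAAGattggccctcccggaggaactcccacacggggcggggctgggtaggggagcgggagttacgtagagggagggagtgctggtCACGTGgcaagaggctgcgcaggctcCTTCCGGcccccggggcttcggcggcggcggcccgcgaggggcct
NOL6: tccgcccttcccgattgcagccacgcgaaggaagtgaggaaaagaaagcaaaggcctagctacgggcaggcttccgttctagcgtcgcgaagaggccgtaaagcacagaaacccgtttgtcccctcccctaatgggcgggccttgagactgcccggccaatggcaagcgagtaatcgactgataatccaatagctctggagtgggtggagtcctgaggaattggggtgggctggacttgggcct
The matches of NXT1 are both of the ETS type, and UTP18 holds an E-box between 2 of them.

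The counts of calls by role, here and below, stand beside 5.32% of all tested genes called lower, and each role holds few genes. The core proteins of the box C/D snoRNP, which carries out 2'-O-methylation of rRNA, were called lower in 3 of 4 cases, with a median log2 fold change of -0.45 over the 4. NOP56, a scaffold of the particle, stood at 527, 475 and 471 CPM in control libraries, and at 334, 358 and 327 CPM in fluoxetine libraries. The groups did not overlap, and the level fell by 30.8% (log2 fold change -0.53 ± 0.074 (SE), edgeR adjusted p = 0.00156). FBL (fibrillarin), the methyltransferase itself, fell from 277, 232 and 228 CPM in the control libraries to 161, 183 and 164 CPM in the fluoxetine libraries (log2 fold change -0.54 ± 0.092 (SE), edgeR adjusted p = 0.00477). Control replicate 1 was the highest library for both genes, and all 3 fluoxetine libraries were below the lowest control library. NOP58, the partner of NOP56, stood at 418 ± 17.1 CPM (SD, n = 3) in control and 324 ± 18.7 CPM in fluoxetine libraries (log2 fold change -0.37 ± 0.071 (SE), edgeR adjusted p = 0.00882), a call lost without fluoxetine replicate 1 (edgeR adjusted p = 0.0618). SNU13, which binds the snoRNA, was measured at 115 ± 8.53 CPM (SD, n = 3) in control and 98.8 ± 9.41 CPM in fluoxetine libraries and did not pass (log2 fold change -0.22, edgeR adjusted p = 0.135).

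The box H/ACA snoRNP, which turns uridines of rRNA into pseudouridines, was called lower in 2 of 4 proteins. DKC1 (dyskerin), the pseudouridine synthase, stood at 355, 329 and 339.6 CPM in control libraries, and at 241, 265 and 272 CPM in fluoxetine libraries. No fluoxetine library reached the lowest control library, and the level fell by 23.9% (log2 fold change -0.39 ± 0.073 (SE), edgeR adjusted p = 0.0069). GAR1, a core protein bound to DKC1, was more scattered among controls, at 51.5, 34.5 and 40.5 CPM in the control libraries and 31.5, 26.2 and 27.6 CPM in the fluoxetine libraries (log2 fold change -0.57 ± 0.14 (SE), edgeR adjusted p = 0.0267). The GAR1 call was lost without control replicate 1 and without each fluoxetine library in turn (edgeR adjusted p between 0.0554 and 0.0594). NOP10 was lower in every fluoxetine than in every control library but did not pass (log2 fold change -0.26, edgeR adjusted p = 0.128), and NHP2 spread from 55.9 to 105 CPM among the controls alone.

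**Figure D3:**
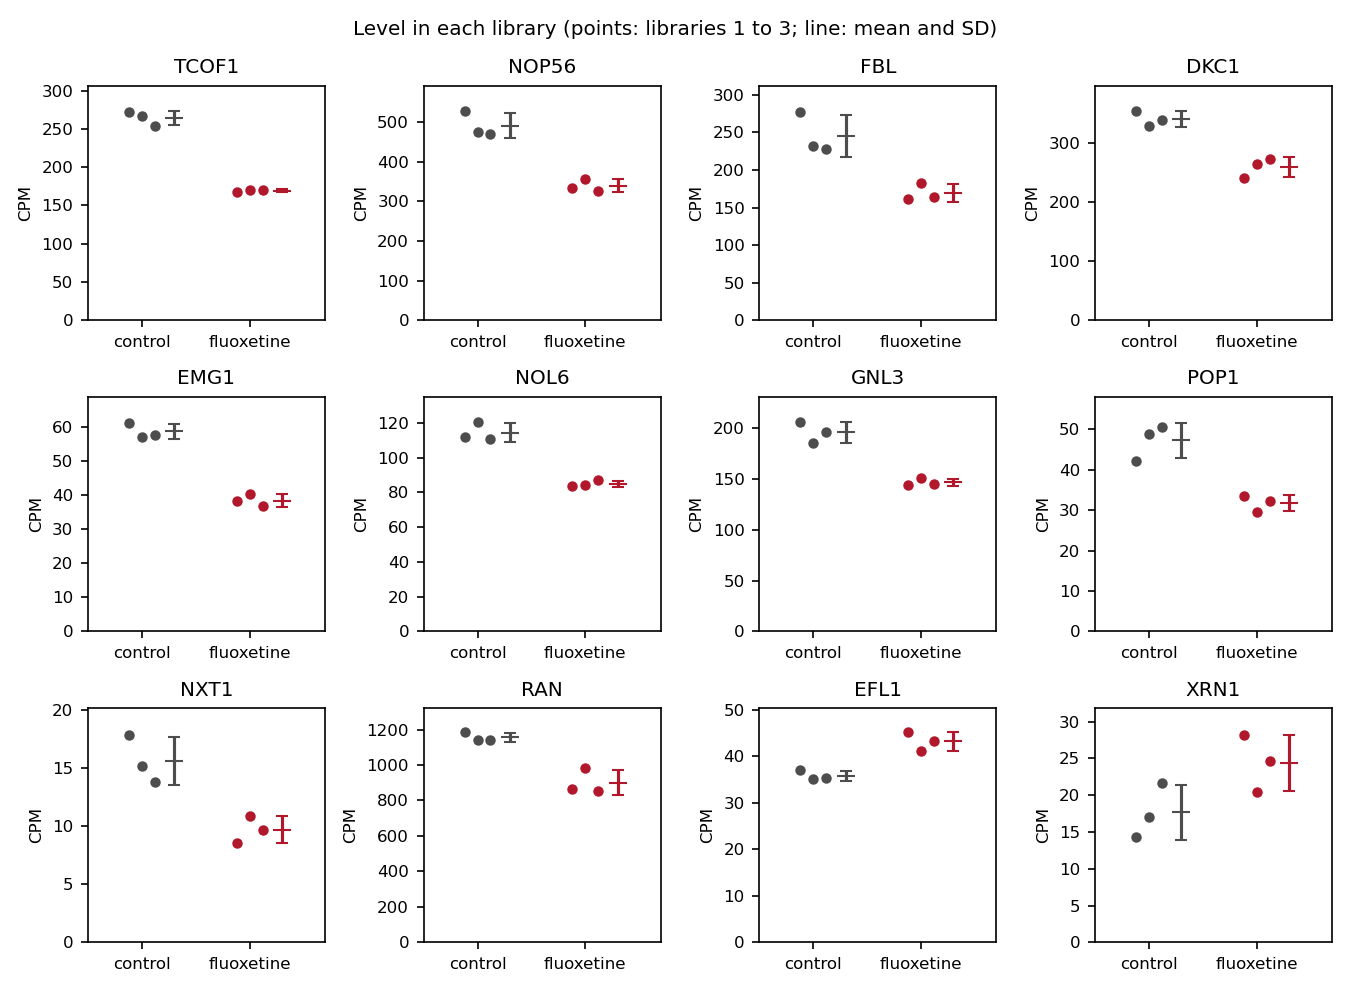
Each panel plots CPM after TMM normalization (vertical axis from 0) for 1 gene, with a point per library (grey control, red fluoxetine) and the mean with its SD beside them. In TCOF1 to RAN no fluoxetine point reaches the control points, EFL1 shows the opposite order, and the XRN1 groups overlap.

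The UTP-A complex (t-UTPs), which binds the nascent precursor rRNA first and is known to link its transcription with its processing, was called lower in 3 of 5 proteins. UTP4 stood at 111, 115 and 112 CPM in the control libraries and 83.5, 92.8 and 86.6 CPM in the fluoxetine libraries, groups that did not overlap (log2 fold change -0.36 ± 0.073 (SE), edgeR adjusted p = 0.0104). WDR43 (log2 fold change -0.26 ± 0.075 (SE), edgeR adjusted p = 0.0447) and WDR75 (log2 fold change -0.25 ± 0.073 (SE), edgeR adjusted p = 0.046) were the weaker calls, the latter from 188 ± 7.25 to 158 ± 9.20 CPM (SD, n = 3). UTP15 did not overlap between the groups and did not pass (log2 fold change -0.13, edgeR adjusted p = 0.321), while HEATR1 ranged over 139 to 194 CPM in control and 135 to 176 CPM in fluoxetine libraries. All 3 calls were lost without fluoxetine replicate 1 (edgeR adjusted p 0.0796 to 0.182) and without fluoxetine replicate 3 (0.0515 to 0.117). Those of WDR43 and WDR75 were also lost without control replicate 2 (0.0731 to 0.0803), that of WDR75 without control replicate 1 (0.0515) and that of WDR43 without fluoxetine replicate 2 (0.0657).

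The UTP-B complex, a further early module of the small subunit processome, had 2 of 6 proteins called lower. UTP6 stood at 131, 125 and 120.0 CPM in the control libraries and 105, 93.0 and 107 CPM in the fluoxetine libraries (log2 fold change -0.31 ± 0.079 (SE), edgeR adjusted p = 0.0311). UTP18 varied little among controls, at 77.4, 76.7 and 76.0 CPM in the control libraries and 61.6, 68.8 and 60.3 CPM in the fluoxetine libraries (log2 fold change -0.27 ± 0.080 (SE), edgeR adjusted p = 0.0486). WDR3 (log2 fold change -0.26, edgeR adjusted p = 0.105) and TBL3 (log2 fold change -0.30, edgeR adjusted p = 0.313) overlapped between the groups, and so did WDR36, whose log2 fold change was 0.12 ± 0.12 (SE). PWP2 had only 24.8 counts per library on average and is described with its copy in a later paragraph. Both calls were lost without control replicate 1 (edgeR adjusted p 0.0628 to 0.075), control replicate 2 (0.0766 to 0.0977), fluoxetine replicate 1 (0.0824 to 0.193) and fluoxetine replicate 3 (0.0529 to 0.186).

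Among UTP-C, its casein kinase 2 subunits and the MPP10 complex, all 9 log2 fold changes were below 0 with a median of -0.33, and 2 passed. Of all tested genes 45.8% were below 0 and 5.32% were called lower. The 9 include CSNK2B and CSNK2A3, whose counts were low. NOL6 (UTP22), a UTP-C scaffold, stood at 112, 121 and 111 CPM in control libraries, and at 83.6, 84.2 and 86.9 CPM in fluoxetine libraries. Its groups lay well apart, with a fall of 25.8% (log2 fold change -0.43 ± 0.072 (SE), edgeR adjusted p = 0.00425). IMP4, of the MPP10 complex, fell from 184 ± 18.6 to 147 ± 8.82 CPM (SD, n = 3; log2 fold change -0.33 ± 0.088 (SE), edgeR adjusted p = 0.0359), a call lost without control replicate 1 (0.0747) or 2 (0.0911) and without fluoxetine replicate 1 (0.134) or 3 (0.122, all edgeR adjusted p). RRP7A (log2 fold change -0.39, edgeR adjusted p = 0.0535) and MPHOSPH10 (log2 fold change -0.23, edgeR adjusted p = 0.0619) lay just outside the threshold, as WDR75 and UTP18 lay just inside it. The kinase genes CSNK2A1 (log2 fold change -0.20, edgeR adjusted p = 0.0925) and CSNK2A2 (log2 fold change -0.12, edgeR adjusted p = 0.283) were lower in every fluoxetine library without passing, and IMP3 had a log2 fold change of -0.06. CSNK2B and CSNK2A3 had 12.8 and 13.5 counts per library, too few to place them.

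The largest number of calls was among the remaining factors, grouped as 40S processing and maturation, where 8 of 12 were called lower with a median log2 fold change of -0.30. The 8 include TCOF1, whose known work is in rRNA gene transcription. TCOF1 (treacle, chr5:150357639-150400308 of GRCh38, ENSG00000070814), a nucleolar protein needed for rRNA gene transcription, stood at 271, 267 and 254 CPM in control libraries, and at 168, 170.0 and 171 CPM in fluoxetine libraries. The fluoxetine libraries lay close together, far below the controls, and the fall of 35.8% had the smallest adjusted p of all members (log2 fold change -0.64 ± 0.065 (SE), edgeR adjusted p = 0.000207). EMG1 (chr12:6970893-6979941), a methyltransferase of 18S rRNA whose promoter is printed with that of NXT1, stood at 61.2, 57.1 and 57.7 CPM in the control libraries and 38.1, 40.3 and 36.6 CPM in the fluoxetine libraries (log2 fold change -0.61 ± 0.083 (SE), edgeR adjusted p = 0.00133). About 49.5% of its exon bases lie opposite those of LPCAT3, which had 160.5 counts per library and a change of 0.43 on the log2 scale (edgeR adjusted p = 0.0674), and the sources used here do not say whether counting used the strand.

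NOB1, the nuclease that makes the last cut at the 3' end of 18S rRNA, stood at 70.7, 64.1 and 67.7 CPM in the control libraries and 48.1, 53.0 and 48.3 CPM in the fluoxetine libraries (log2 fold change -0.44 ± 0.082 (SE), edgeR adjusted p = 0.00756). RCL1 was at 25.9 ± 1.63 CPM (SD, n = 3) in control and 19.0 ± 0.858 CPM in fluoxetine libraries (log2 fold change -0.45 ± 0.099 (SE), edgeR adjusted p = 0.0155). BMS1, a GTPase of the processome, went from 269 ± 11.0 to 213 ± 10.3 CPM (SD, n = 3; log2 fold change -0.34 ± 0.070 (SE), edgeR adjusted p = 0.0116). In these 3 genes the groups did not overlap. RIOK1, a kinase of late pre-40S particles (log2 fold change -0.33, edgeR adjusted p = 0.0252), UTP14A (log2 fold change -0.28, edgeR adjusted p = 0.0259) and NAT10, the acetyltransferase of 18S rRNA (log2 fold change -0.28, edgeR adjusted p = 0.0331), fell by 17.4 to 20.6%. RIOK2 (log2 fold change -0.20, edgeR adjusted p = 0.153), AK6 (log2 fold change -0.15, edgeR adjusted p = 0.385) and FCF1 (log2 fold change -0.10, edgeR adjusted p = 0.485) did not pass, nor did UTP14C (log2 fold change 0.17, edgeR adjusted p = 0.472). Without fluoxetine replicate 1 the calls of BMS1, NAT10, NOB1, RCL1, RIOK1 and UTP14A were lost (edgeR adjusted p 0.0541 to 0.125). NAT10, RCL1 and UTP14A lost theirs without fluoxetine replicate 3 (0.0571 to 0.083), NAT10, RIOK1 and UTP14A without control replicate 2 (0.0598 to 0.0751), RIOK1 without control replicate 1 (0.0508) and NAT10 without fluoxetine replicate 2 (0.0501).

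**Figure D4:**
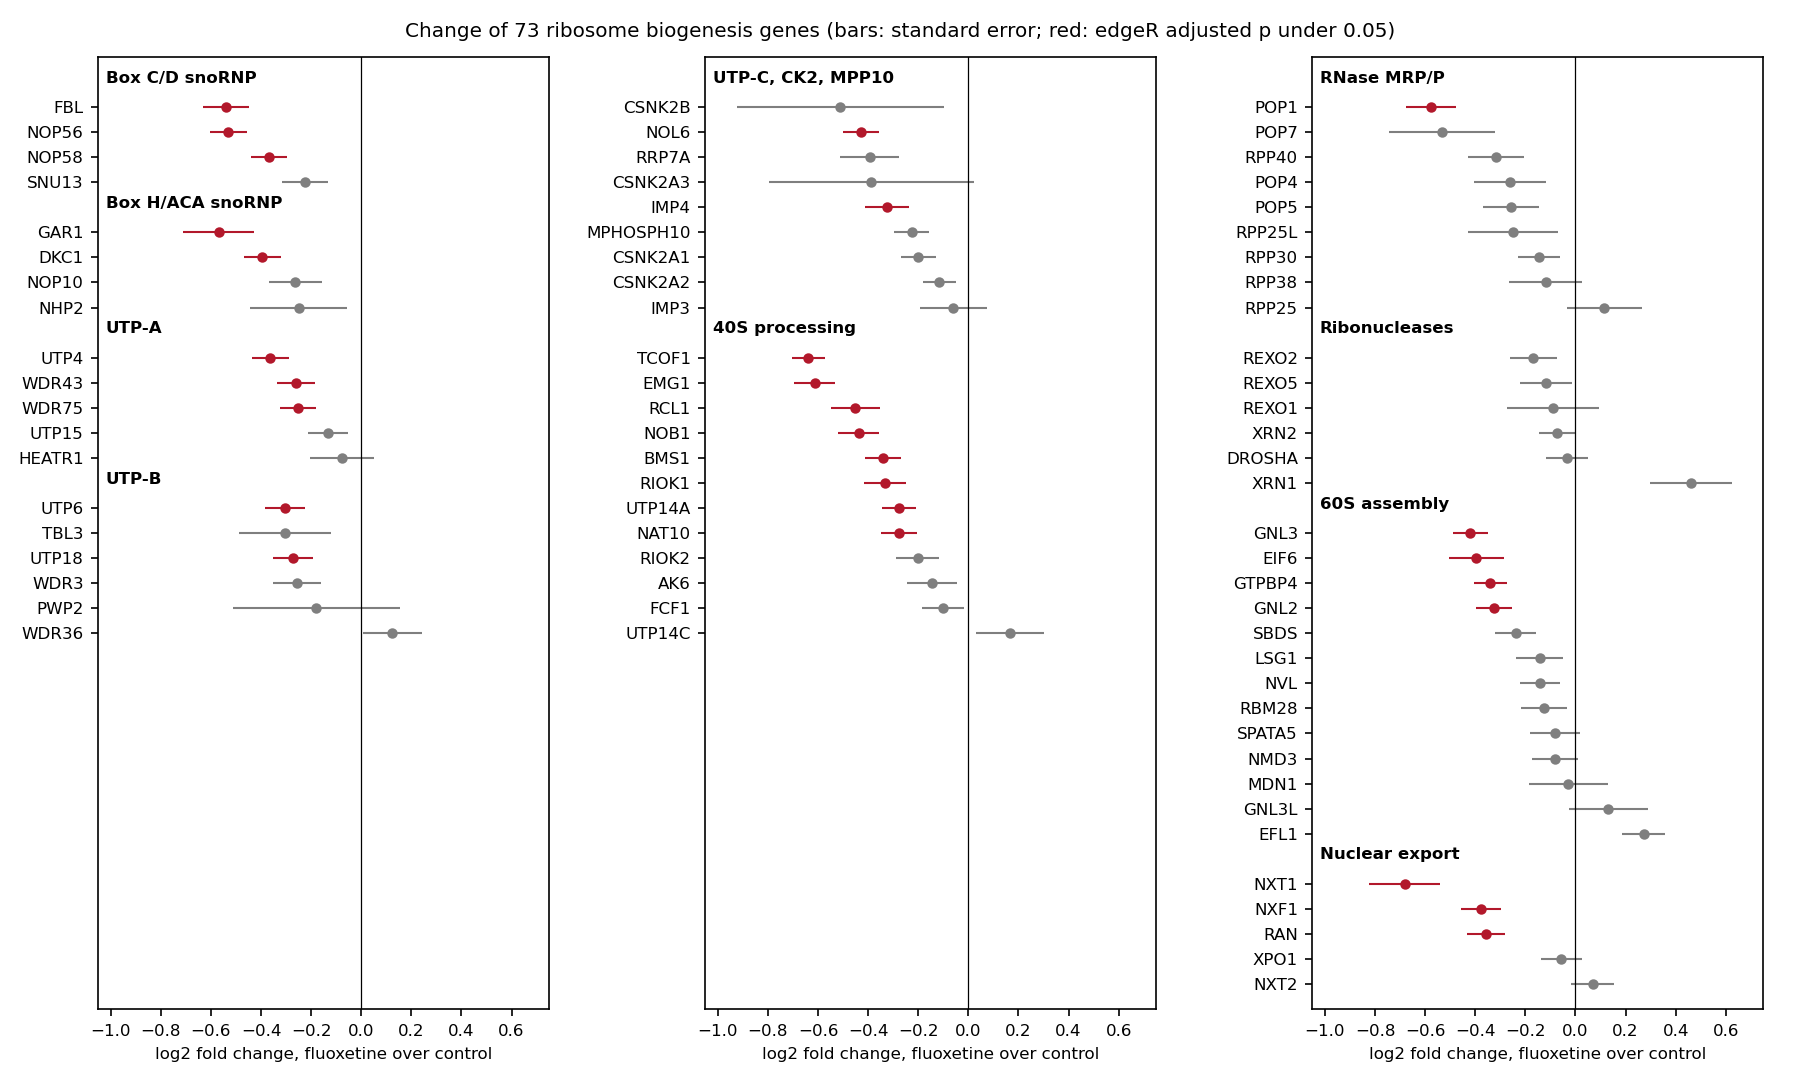
Points give the edgeR log2 fold change of fluoxetine over control for the 73 tested genes and bars its standard error, by role. The 28 genes in red passed an adjusted p of 0.05 and all lie left of 0, from NXT1 at -0.68 to WDR75 at -0.25.

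RNase MRP and RNase P share most of their proteins, and cut precursor rRNA and tRNA. Of 9 members 1 passed (11.1%), where 5.32% of all tested genes were called lower, so the call is of a single gene. POP1, their largest protein, stood at 42.3, 48.9 and 50.5 CPM in control libraries, and at 33.4, 29.6 and 32.2 CPM in fluoxetine libraries. It was lower in each fluoxetine library than in any control, and fell by 32.9% (log2 fold change -0.58 ± 0.10 (SE), edgeR adjusted p = 0.00503). The other 8 had a log2 fold change from -0.53 (POP7) to 0.11 (RPP25). POP7 had the second largest fall of the group and a control spread of 24.9 to 44.4 CPM, with control replicate 3 below fluoxetine replicates 1 and 2 (log2 fold change -0.53, edgeR adjusted p = 0.128). RPP40 (log2 fold change -0.32, edgeR adjusted p = 0.0877) did not overlap between groups and did not pass, and POP4, POP5, RPP25L, RPP30 and RPP38 overlapped.

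The ribonucleases that trim rRNA ends or work on other RNAs had no call, with edgeR's unadjusted p under 0.05 for XRN1 only, and a median log2 fold change of -0.08 over 6 genes. XRN1, the cytoplasmic 5'-to-3' exonuclease of mRNA decay, stood at 14.3, 17.1 and 21.6 CPM in control libraries, and at 28.1, 20.5 and 24.6 CPM in fluoxetine libraries. Control replicate 3 lay above fluoxetine replicate 2, and the difference in the means did not pass (log2 fold change 0.46 ± 0.16 (SE), edgeR adjusted p = 0.0907). It passed in 4 of 17 alternative fits, among them without control replicate 3 (log2 fold change 0.61, edgeR adjusted p = 0.0101) and without a filter on low counts (log2 fold change 0.43, edgeR adjusted p = 0.0144). XRN2, its nuclear counterpart, was measured at 185 ± 12.2 CPM (SD, n = 3) in control and 176 ± 5.84 CPM in fluoxetine libraries (log2 fold change -0.07, edgeR adjusted p = 0.588). REXO1, REXO2, REXO5 and DROSHA, the nuclease of microRNA processing, had log2 fold changes between -0.17 and -0.03.

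In 60S assembly 4 of 13 factors were called lower, and the median log2 fold change was -0.14. GNL3 (nucleostemin), a nucleolar GTPase, stood at 206, 185 and 196 CPM in control libraries, and at 143, 151 and 145 CPM in fluoxetine libraries. The 3 fluoxetine libraries lay below all controls (log2 fold change -0.42 ± 0.070 (SE), edgeR adjusted p = 0.00429). The GTPases GTPBP4 (231, 214 and 226 CPM in the control libraries and 173, 177 and 181 CPM in the fluoxetine libraries) and GNL2 (103, 95.4 and 102 CPM in the control libraries and 77.3, 81.2 and 81.2 CPM in the fluoxetine libraries) likewise did not overlap, and both were called (log2 fold change -0.34 ± 0.067 (SE), edgeR adjusted p = 0.00939 for GTPBP4, and log2 fold change -0.33 ± 0.072 (SE), edgeR adjusted p = 0.016 for GNL2). EIF6, which keeps the 60S subunit from joining the 40S too early, fell from 64.2 ± 8.57 to 48.8 ± 4.02 CPM (SD, n = 3; log2 fold change -0.40 ± 0.11 (SE), edgeR adjusted p = 0.0399). The GTPase that releases EIF6, EFL1, lay the other way, with 36.9, 35.0 and 35.4 CPM in the control libraries and 45.2, 41.2 and 43.2 CPM in the fluoxetine libraries. The EFL1 groups did not overlap, but the test missed the threshold (log2 fold change 0.27 ± 0.085 (SE), edgeR adjusted p = 0.0599). EFL1 passed in 5 of 17 alternative fits, among them with library size only (edgeR adjusted p = 0.0486) and after correction for GC content and length (edgeR adjusted p = 0.0277). Its partner SBDS had a log2 fold change of -0.24 (edgeR adjusted p = 0.0794).

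The calls of EIF6, GNL2 and GTPBP4 were lost without fluoxetine replicate 1 (edgeR adjusted p 0.0563 to 0.147), those of EIF6 and GNL2 without fluoxetine replicate 3 (0.0553 to 0.122), and that of EIF6 without control replicate 1 (0.0894) or 2 (0.0926). The other 60S factors did not pass. The AAA ATPases NVL, MDN1 and SPATA5 were at -0.14, -0.03 and -0.08, LSG1 at -0.14, RBM28 at -0.12, the export adapter NMD3 at -0.08 and GNL3L at 0.13 on the log2 scale. MDN1 spread widely in both groups, with 65.8, 74.8 and 87.5 CPM in the control libraries and 78.3, 56.0 and 89.4 CPM in the fluoxetine libraries.

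Of the 5 tested nuclear export genes 3 were called lower. NXT1, the small partner of the export receptor NXF1, had the largest fall of all members and 2 ETS-type matches in its promoter, and stood at 17.9, 15.2 and 13.8 CPM in control libraries, and at 8.56, 10.9 and 9.67 CPM in fluoxetine libraries (log2 fold change -0.68 ± 0.14 (SE), edgeR adjusted p = 0.012). NXF1 stood at 85.5, 84.5 and 92.1 CPM in the control libraries and 62.4, 67.7 and 71.7 CPM in the fluoxetine libraries (log2 fold change -0.38 ± 0.082 (SE), edgeR adjusted p = 0.0145). RAN, the GTPase that gives transport its direction, was the most abundant member per length (239 CPM per kb of exon in control) and stood at 1184, 1144 and 1138 CPM in the control libraries and 863, 985 and 856 CPM in the fluoxetine libraries (log2 fold change -0.36 ± 0.075 (SE), edgeR adjusted p = 0.0126). All 3 were lower in every fluoxetine library. XPO1, the exportin of both subunits, was measured at 437 ± 43.7 CPM (SD, n = 3) in control and 421 ± 13.5 CPM in fluoxetine libraries (log2 fold change -0.06, edgeR adjusted p = 0.686), and NXT2 at 72.5 ± 7.08 CPM (SD, n = 3) in control and 76.0 ± 0.496 CPM in fluoxetine libraries (log2 fold change 0.07, edgeR adjusted p = 0.632). The 3 calls were lost without fluoxetine replicate 1 (edgeR adjusted p 0.073 to 0.0824), and that of RAN without fluoxetine replicate 3 (0.0685). NXF3, at 0 to 2 counts per library, and NXF5, at 2 counts in control replicate 1 and 0 elsewhere, were too low to be tested.

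Levels per length spanned a wide range. After RAN, the highest members per kb of exon in control were NOP58 (127 CPM per kb), FBL (113), NOP10 (110.3) and NOP56 (91.0). The 28 called members had a median control level of 126 CPM and a median standard error of 0.075 on the log2 scale, and the 45 tested members not called a level of 61.1 CPM and a standard error of 0.10. Over all 15646 tested genes these medians were 16.3 CPM and 0.13, against 69.8 CPM and 0.091 over the 73 tested members. A small fall thus passes more easily in the members than in most genes. The part of this in the share of members called was not tested. The called members lie on 16 chromosomes.

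Some counts are uncertain because other genes share the sequence. The transcript of PWP2 is matched over 100% of its length, at 99.87% identity, by FP565260.1, a gene with 532.8 counts per library against 24.8 for PWP2. FP565260.1 was itself called lower (log2 fold change -0.51, edgeR adjusted p = 0.0052), where PWP2 had a log2 fold change of -0.18, edgeR adjusted p = 0.761. CSNK2A3 is matched over 96.5% by CSNK2A1. UTP14A is matched over 99.1% by UTP14C at 93.9% identity, and 74.2% of the exon bases of UTP14C also belong to ALG11. NOB1 is matched over 71.4% by a pseudogene that had 0.333 counts per library. SBDS and RRP7A share 57.3% and 53.3% of their transcripts with SBDSP1 (log2 fold change -0.42, adjusted p = 0.0134) and RRP7BP (log2 fold change -0.41, adjusted p = 0.0724). Exons of neighbouring genes cover 59.3% of the exon bases of IMP3, 29.9% of TBL3, 29.05% of CSNK2B, 27.4% of NHP2, 26.9% of RPP38, 24.5% of AK6 and 23.2% of HEATR1. The opposite-strand neighbours with the longest overlap at IMP3 and HEATR1 were called higher, with a log2 fold change of 0.53 for SNX33 (edgeR adjusted p = 0.00587) and of 0.65 for LGALS8 (edgeR adjusted p = 0.00152).

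Other genes of the pathway, from lists written by hand with the members left out, gave 0 higher calls each. Lower calls made up 38.9% of further assembly factors, 20% of RNA polymerase I genes and 21.4% of exosome genes. Of all tested genes 5.32% were called lower. Of 95 further assembly factors 37 were called lower (median log2 fold change -0.29), led by NCL (nucleolin), a nucleolar protein bound to precursor rRNA, at 3159 ± 183 CPM (SD, n = 3) in control and 2229.6 ± 91.9 CPM in fluoxetine libraries (log2 fold change -0.50, edgeR adjusted p = 0.00215). MRTO4 (log2 fold change -0.56, edgeR adjusted p = 0.00331), NOP16 (log2 fold change -0.59, edgeR adjusted p = 0.00366) and RRP9 (log2 fold change -0.53, edgeR adjusted p = 0.00377) followed. Without fluoxetine replicate 1, fluoxetine replicate 3 or control replicate 2 the count of calls was 11, 16 or 24, and without control replicate 3 it was 61. Of all genes, 1.01, 2.01, 2.75 and 12.7% were called lower in these fits. Without control replicate 1 and fluoxetine replicate 2 that share was 3.48 and 6.96%. Of 15 genes of the RNA polymerase I machinery 3 were lower (median -0.25), POLR1E (log2 fold change -0.47, edgeR adjusted p = 0.00362), POLR1C (log2 fold change -0.40, edgeR adjusted p = 0.0262) and UBTF (log2 fold change -0.26, edgeR adjusted p = 0.0401), a count of 1 without control replicate 1 or 2 or fluoxetine replicate 1, 5 without fluoxetine replicate 2 and 7 without control replicate 3. Of 14 exosome genes 3 were lower (median -0.27), EXOSC2 (log2 fold change -0.41, edgeR adjusted p = 0.00474), EXOSC9 (log2 fold change -0.39, edgeR adjusted p = 0.00984) and EXOSC8 (log2 fold change -0.32, edgeR adjusted p = 0.049), a count of 1 without fluoxetine replicate 1 and 7 without control replicate 3.

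The ribosomal proteins that these factors assemble had a like median. Of 85 cytosolic ribosomal protein genes 20 were called lower, with 84 below 0 and a median log2 fold change of -0.29. The called ones are 23.5% of the list, against 5.32% of all tested genes, of which 45.8% were below 0. RPL22L1 (log2 fold change -0.48, edgeR adjusted p = 0.00683), RPL41 (log2 fold change -0.39, edgeR adjusted p = 0.0163), RPL24 (log2 fold change -0.44, edgeR adjusted p = 0.0196) and RPL38 (log2 fold change -0.38, edgeR adjusted p = 0.0203) had the smallest p. That count was unsteady, at 1 without fluoxetine replicate 1 or 3, 5 and 8 without control replicates 1 and 2, 52 without fluoxetine replicate 2 and 73 without control replicate 3. Of all genes, 1.01, 2.01, 3.48, 2.75, 6.96 and 12.7% were called lower in these fits, in that order. Control replicate 1 carried 50445 CPM on these genes and control replicate 3 only 40746 CPM, below fluoxetine replicate 2 at 41969 CPM, so the summed level overlapped between the groups. Mean control levels were very uneven, with RPL4 at 3167 CPM beside RPS10 at 1.69 CPM and RPL21, a called gene, at 25.6 CPM. Shared sequence was sought for the members only, so its part in these counts was not tested. MYC, the transcription factor known for driving these genes, was at 255 ± 40.3 CPM (SD, n = 3) in control and 269.9 ± 37.2 CPM in fluoxetine libraries (log2 fold change 0.08, edgeR adjusted p = 0.708).

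**Figure D5:**
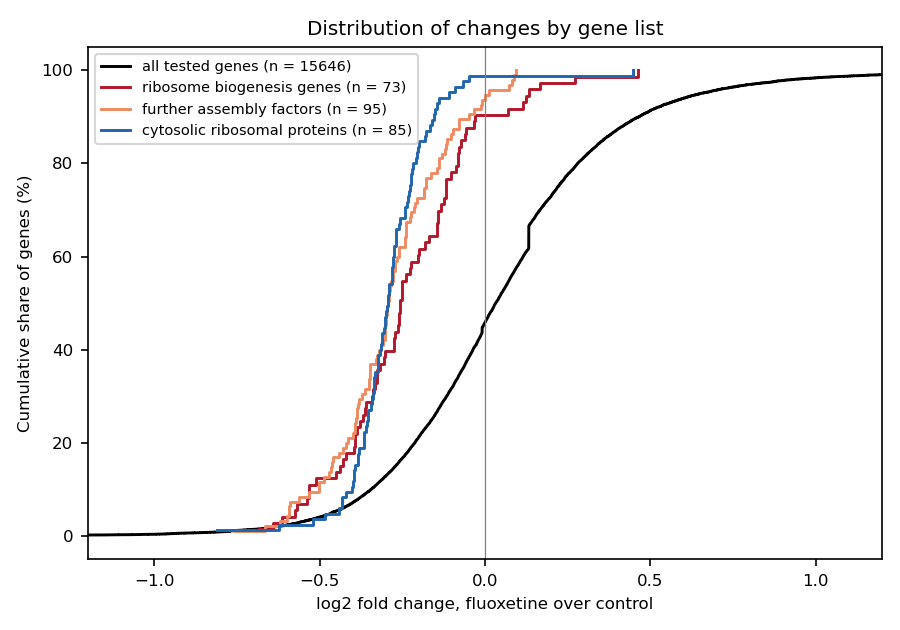
Curves give the cumulative share of genes (vertical axis, %) up to each log2 fold change of fluoxetine over control (horizontal axis) for all tested genes, ribosome biogenesis genes, further assembly factors and cytosolic ribosomal proteins. The 3 ribosome lists lie left of all tested genes, with medians of -0.26, -0.29 and -0.29 against 0.03.

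Cell cycle genes moved with the members. Of 20 listed, 13 were called lower and 20 were below 0 (median log2 fold change -0.38), among them CDC20 (log2 fold change -0.88, edgeR adjusted p = 0.000674), CCNB1 (log2 fold change -0.50, edgeR adjusted p = 0.00142), CDK1 (log2 fold change -0.45, edgeR adjusted p = 0.00185) and RRM2 (log2 fold change -0.47, edgeR adjusted p = 0.00273). The 13 called lower are 65% of the list, against 5.32% of all tested genes, of which 45.8% were below 0. The summed level of the 20 was 4201 to 4280 CPM in control and 3253 to 3398 CPM in fluoxetine libraries. Their part in the fall of the ribosome biogenesis genes was not tested.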

How the data were processed

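H460 cells were sequenced in 3 control and 3 fluoxetine libraries, grouped by the labels. The authors deposited 1 table of raw read counts per gene, not normalized and not pooled, with a pathway column from which the members were read. The authors' own log2 fold changes and p-values in that table were not used. The submitters' processing notes list fastp 0.20.0, HISAT2 2.1.0, HTSeq 0.10.0 and DESeq2 1.18.1. The genome build, the annotation and the use of strand in counting are not given in the sources used here. All 75 members were found in GENCODE release 29 (GRCh38), 71 with the same start and end.

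Counts were tested with edgeR 4.0.16 under R 4.3.3 (glmQLFit and glmQLFTest, TMM, filterByExpr, no covariate) and Benjamini-Hochberg adjustment over 15646 genes. Levels are CPM after TMM, with factors of 0.985 to 1.02. Chi-square per degree of freedom was 3.72 to 24.2 for pairs within and 22.9 to 52.0 for pairs across groups, ranges that overlap. All libraries were used as replicates of their group. These values do not show whether they are separate cultures. An exact permutation test of 3 against 3 cannot go below p = 0.1 and was not used. Copies were sought with blastn (at least 90% identity over 100 bases).

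Alternatives were DESeq2 1.42.0, limma-voom (limma 3.58.1), RLE, library size only, no filter, a minimum of 10 counts per library, a replicate block, each library left out, thinning to equal depth, and correction for GC content and length. On simulated counts edgeR recovered 27% of genes changed by 1.3-fold, 73.4% at 1.5-fold and 100% at 2-fold, with 7 false calls among 15661 genes, and made 0 calls among 15679 genes without a change. The changed genes numbered 63, 79 and 58 at these sizes, and every gene had the same dispersion. In the data 2047 genes were called and dispersions differ between genes, so these shares are a rough guide.

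The members, roles and lists were chosen with earlier results of these data known. Named by rule were called members, the smallest p and highest count of each role, the extremes of the fold change, members removed by the filter, paralog pairs and up to 4 called genes of each list. Other members were named after their values were seen.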

Additional observations from a re-analysis of the deposited data

How the results depend on the processing

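Of the 28 called members under 17 alternative fits each, 420 of 476 values kept their direction and call, 56 lost the call and 0 turned. The count of members called lower was 8 to 39 with 1 library left out, 44 after correction for GC content and length, and 43 with the replicate block added to that. The count in either direction was 8 to 40, 45 and 44 in the same order, and 0 at a fold change of at least 2. The higher count was 0 to 1 with 1 library left out, 1 with library size only, 1 without a filter, 1 with the correction and 1 with the block added to that. The median log2 fold change was -0.31 to -0.23 with 1 library left out, -0.29 without a filter, -0.29 with the correction and -0.29 with the block added. Among the named genes, turned directions were of genes that were not called, with GNL3L at -0.037 without fluoxetine replicate 3, NXT2 at -0.030 without control replicate 1 and RPP25 at -0.072 without control replicate 3 and -0.030 without fluoxetine replicate 2. With 1 library left out GNL3L ranged from -0.037 to 0.25, NXT2 from -0.030 to 0.11 and RPP25 from -0.072 to 0.20. Of the other members, also not called, MDN1 reached 0.11, HEATR1 0.020, PWP2 0.035, REXO1 0.0068 and IMP3 0.00047 from below 0, and WDR36 -0.0069 from above. Of all genes called, 59.3% were higher as reported, 47.9% without a filter and 40.5% with the correction. Apart from fits with fewer libraries, the cause was not tested.

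Same-numbered libraries did not deviate together in each pair (r = 0.03, 0.12 and 0.39), and control replicate 1 correlated best with fluoxetine replicate 2 (0.32), so the numbers were not taken to pair the samples. With the replicate block 39 members were called lower and 2 higher, and at equal depth with the block 39 and 2, where 11.4% and 11.2% of all genes were called lower instead of 5.32%. The 2 higher calls were XRN1 (log2 fold change 0.47, edgeR adjusted p = 0.000282 with the block, and 0.48, 0.000342 at equal depth with it) and EFL1 (0.27, 0.024 and 0.27, 0.0295). EFL1 also passed with the correction and the block (log2 fold change 0.22, edgeR adjusted p = 0.0318).

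For the RNA polymerase I machinery, further assembly factors, the exosome, cytosolic and mitochondrial ribosomal proteins, in this order, the counts of calls were 6, 60, 5, 67, 27 without a filter, 7, 64, 6, 65, 27 with the replicate block, 7, 61, 7, 63, 26 at equal depth with the block, 10, 70, 8, 55, 25 with the correction and 9, 63, 6, 42, 21 with the correction and the block. Of all genes, 4.77, 11.4, 11.2, 14.9 and 14.2% were called lower in these fits, in that order. DESeq2 called 42 cytosolic and 16 mitochondrial genes, with 6.98% of all genes called lower. With 1 library left out the counts were 1 to 7, 11 to 61, 1 to 7, 1 to 73, 0 to 30, and the medians -0.29 to -0.26, -0.36 to -0.28, -0.37 to -0.24 for the first 3. The median of the RNA polymerase I machinery was -0.27 with DESeq2, -0.27 with RLE, -0.22 with library size only, -0.28 without a filter, -0.30 with the correction and -0.30 with the block added. That of the cell cycle genes was -0.40, -0.40, -0.35, -0.41, -0.43 and -0.43 in the same order, and -0.45 to -0.41 with 1 library left out.

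Low counts limit CSNK2B, CSNK2A3 and PWP2, at under 25 per library, and NXF3 and NXF5, which were not tested. PWP2 and CSNK2A3 are matched over nearly the whole transcript by a gene with more counts, and CSNK2B shares exon bases with neighbours. The part of depth and of shared sequence in these low counts was not tested. The spread between 3 libraries limits falls of this size. The simulated test at 1.3-fold recovered 27% of changed genes, with few genes changed and the same dispersion for every gene. That share need not hold for these data.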

Other observations

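The mitochondrial ribosome, which is assembled by other factors, had ribosomal proteins with a like median. Of 42 tested mitochondrial ribosomal protein genes 9 were called lower and 0 higher, and 39 were below 0, with a median log2 fold change of -0.32. The 9 are 21.4% of those tested, against 5.32% of all tested genes, of which 45.8% were below 0. MRPL16 was at 51.9 ± 8.55 CPM (SD, n = 3) in control and 34.6 ± 3.75 CPM in fluoxetine libraries (log2 fold change -0.59, edgeR adjusted p = 0.0163), followed by MRPL14 (log2 fold change -0.44, edgeR adjusted p = 0.0262), MRPL27 (log2 fold change -0.39, edgeR adjusted p = 0.0307) and MRPL33 (log2 fold change -0.51, edgeR adjusted p = 0.0341). The count was 0 without control replicate 2 or fluoxetine replicate 1, 1 without control replicate 1 or fluoxetine replicate 3, 17 without fluoxetine replicate 2 and 30 without control replicate 3. The shares of all genes in these fits are those given with the cytosolic genes. The summed level of these genes was 2374 to 2899 CPM in control and 2078 to 2379 CPM in fluoxetine libraries, which overlap.

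Across the 73 tested ribosome biogenesis genes, the log2 fold change had a Spearman correlation of 0.33 with transcript length and -0.37 with GC content, as a description across genes that share libraries and are not independent replicates. Over 15600 tested genes the same values were 0.20 and -0.16. With the control level it was -0.19 over the members and -0.19 over all 15646 genes. Their part in the fall of the members was not tested beyond the fit corrected for both GC content and length.

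The GC-box GGGCGG, found in 74.3% of promoters of all tested genes, was in 73.5% of the members' promoters, and CCAAT was in 35.3% against 41.2%. An NRF1-type palindrome was in 5.88% of the members' promoters and 2.24% of those of all tested genes. These shares rest on 50, 24 and 4 of 68 genes.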
